A study of Mus musculus with 4 samples.

Results

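The interferon-inducible GTPases examined here were 9 mouse genes, the guanylate-binding proteins Gbp2, Gbp3, Gbp5, Gbp7 and Gbp9 and the immunity-related GTPases Igtp, Irgm1, Irgm2 and Iigp1. They were chosen by symbol, and each matched 1 row of the 24532 genes in the deposited expression table. The data were 4 RNA-seq libraries of articular cartilage from wild type C57BL/6 mice, and the study asked which early responses to cartilage injury differ between young and adult animals. The young sham and young injured libraries came from mice of 3 weeks. The adult sham and adult injured libraries came from mice given as 10 weeks old in the methods and as 12 and 14 weeks in the sample labels. Injured cartilage was collected 3 days after surgery, which the methods call full-thickness cartilage injury and the labels call DMM (destabilization of the medial meniscus). The label of the adult sham library gives day 3 to day 14. Each library held pooled cartilage, of 10 injured or 5 uninjured mice, so that every group was 1 library. No error, test or replicate check could be given for any value, and a difference between libraries may come from the pools, the dissection or the sequencing as well as from the condition.

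Both families are large GTP-hydrolysing proteins that cells make in response to interferons, IFN-γ (type II interferon) above all. In infected cells they gather on the membrane of the vacuole that encloses a bacterium or parasite and help to break it, and some also release ligands for inflammasomes, the protein platforms that activate inflammatory caspases. Within the immunity-related GTPases, Irgm1, Irgm2 and Igtp are regulators that sit on the cell's own membranes and hold effector GTPases such as Iigp1 in an inactive state. Induction runs from the receptor chains Ifngr1 and Ifngr2 and the kinases Jak1 and Jak2 to promoter elements, among them the GAS element (gamma-activated sequence) and the ISRE (interferon-stimulated response element). Complexes with Irf9, and Irf1 among other factors, bind the ISRE. Resting cartilage is a tissue of chondrocytes with few immune cells.

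Promoter sequences are shown because all GTPase genes with a RefSeq promoter entry held an ISRE, and because Igtp and Irgm2 shared most of theirs. Windows of 300 bases, from 250 before to 50 after the annotated start, were searched for the ISRE letters GAAANNGAAA on both strands and for the GAS letters TTCNNNGAA, which read the same on both strands. Entries were found for 7 of the 9 genes, with 2 starts for Gbp3. An ISRE match was present in 7 of 7 genes, against 3.99% of 27025 genes with an entry, and a GAS match in 4 of 7 (Gbp5, Gbp7, Igtp and Irgm2), against 9.55%. Both matches lay in 1 window in those 4 genes, against 0.54% of all genes. A match of letters is a description and does not show that a factor binds there. Of 5 genes, the 120 bases upstream of the start are given 5′ to 3′ on the strand of the gene (GRCm38.p6, the assembly of mm10), with GAS and ISRE matches in capitals. They lie at chr11:58199436-58199555 (plus strand) for Igtp, chr11:58214857-58214976 (plus) for Irgm2, chr11:48871421-48871540 (minus) for Irgm1, chr3:142620543-142620662 (plus) for Gbp2 and chr3:142530216-142530335 (plus) for Gbp7.
Igtp: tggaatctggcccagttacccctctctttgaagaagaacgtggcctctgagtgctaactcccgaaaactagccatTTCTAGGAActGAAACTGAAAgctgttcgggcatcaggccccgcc
Irgm2: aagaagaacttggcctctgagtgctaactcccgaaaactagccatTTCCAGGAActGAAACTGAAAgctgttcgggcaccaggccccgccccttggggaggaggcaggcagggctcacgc
Irgm1: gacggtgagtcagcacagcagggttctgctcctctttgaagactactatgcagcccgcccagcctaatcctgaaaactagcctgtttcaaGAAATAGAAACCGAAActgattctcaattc
Gbp2: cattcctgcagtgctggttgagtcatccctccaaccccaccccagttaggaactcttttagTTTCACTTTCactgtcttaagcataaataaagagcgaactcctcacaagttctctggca
Gbp7: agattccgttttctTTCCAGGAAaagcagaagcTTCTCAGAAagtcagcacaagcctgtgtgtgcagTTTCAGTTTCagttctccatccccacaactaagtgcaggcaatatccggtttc

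In Igtp and Irgm2 the GAS and the ISRE were separated by 2 bases in both genes. The element began 45 bases upstream of the start in Igtp and 75 bases upstream in Irgm2. The full windows of these neighbouring genes shared a run of 61 identical bases, and 68.1% of 270 aligned bases were the same when the windows were shifted by 30 bases. Among the other 27 pairs of windows the longest identical run was 13 bases. In Irgm1 the capitals are a pair of overlapping ISRE matches that began 30 and 24 bases upstream. Gbp2 held a single ISRE match, 59 bases upstream and on the opposite strand. Gbp7 held GAS matches 106 and 87 bases upstream and an ISRE match 53 bases upstream. Of the genes not printed, Gbp3 had overlapping ISRE matches 45 and 39 bases upstream of its upstream start and none at its downstream start. Gbp5 had an ISRE match 165 bases and GAS matches 245 and 52 bases upstream. The map of matches shows that apart from Gbp5 the ISRE lay within 64 bases of the start in every gene that had an entry.

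**Figure D1:**
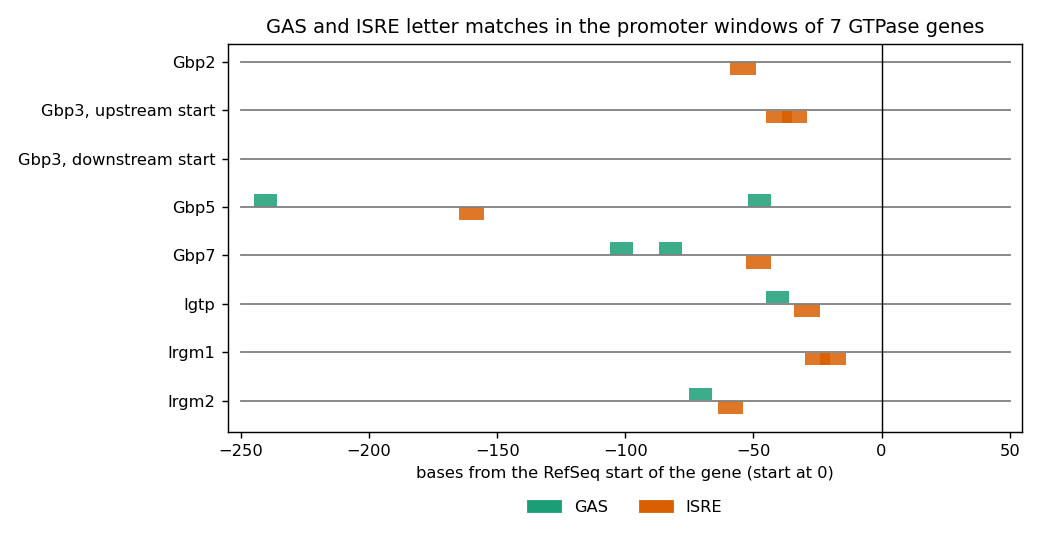
Positions of GAS (green) and ISRE (orange) letter matches along the promoter windows of 7 GTPase genes, in bases from the RefSeq start, with the start at 0. Igtp and Irgm2 hold the pair at the same spacing of 2 bases, and the downstream start of Gbp3 holds no match.

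The genes lay on 4 chromosomes. Gbp5 (142496934 to 142522344), Gbp7 (142530336 to 142550151), Gbp3 (142560016 to 142573213) and Gbp2 (142620663 to 142638008) lay within 141.1 kb of chromosome 3, with Gbp2b between Gbp3 and Gbp2. Gbp9 (105076464 to 105110357) lay in a second Gbp group on chromosome 5. Igtp (58199556 to 58207592) and Irgm2 (58214977 to 58222783) were neighbours on chromosome 11, and Irgm1 (48865245 to 48871420) lay elsewhere on the same chromosome. Iigp1 was on chromosome 18. Members of such families can share reads. Each transcript was cut into all words of 31 bases, and the words found in another gene as well made up 18.3% for Gbp9, 15.9% for Igtp (all of it with Irgm2), 14.7% for Gbp7 and 10.7% for Irgm2. They made up between 2.20% and 6.90% for the other 5 genes, so that none of the 9 was a near-identical copy of another gene. The span of Gbp2 overlaps Mir6381 and that of Gbp3 overlaps Gm40158, and the other 7 overlap no annotated gene.

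Levels are FPKM (fragments scaled by transcript length and by the mapped total), which are corrected for length and can be compared between genes. Fragment counts were not used here, so depth is known only indirectly. If the even spacing seen when low FPKM values are multiplied by transcript length reflects single fragments, the libraries held about 26300000 (sham) and 25700000 (injured) fragments in young mice, and 30400000 (sham) and 25100000 (injured) in adult mice. Log2 ratios are of FPKM + 1, so that they understate the change of the weaker genes, and a gene was counted as changed at 2-fold or more. The general level of the libraries also differed. Among the 10891 genes that reached 1 FPKM everywhere, the middle log2 ratio was −0.04 after young injury, 0.23 after adult injury, −0.30 between the shams (adult over young) and 0.07 between the injured libraries (young over adult). The immune GTPases are read against these shifts.

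The regulators Irgm1, Irgm2 and Igtp were the 3 most abundant members in every library. Irgm1, which keeps effectors off the cell's own membranes, was at 8.11 FPKM in young sham, 18.2 FPKM in young injured, 6.92 FPKM in adult sham and 10.8 FPKM in adult injured cartilage. It was the highest of the 9 genes in all 4 libraries and made up 42.8%, 32.6%, 46.8% and 28.9% of their summed FPKM in the same order. Its share of the sum was thus lower in the injured than in the sham library at both ages.

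Irgm2 was at 3.53 FPKM in young sham, 11.2 FPKM in young injured, 2.31 FPKM in adult sham and 6.74 FPKM in adult injured cartilage. For Igtp, the third regulator, the same 4 libraries gave 2.70, 10.3, 2.46 and 6.33 FPKM. These neighbours on chromosome 11, whose promoter windows share the paired GAS and ISRE printed above, lay within a ratio of 1.31 of each other in each library. Iigp1, the effector, was far lower in sham cartilage, at 0.177 FPKM (young) and 0.102 FPKM (adult). In injured cartilage it reached 1.31 FPKM (young) and 1.28 FPKM (adult). All 4 immunity-related GTPases were higher in the injured library of each age, and for each of them both injured libraries lay above both sham libraries.

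Among the guanylate-binding proteins, Gbp2, which carries a lipid anchor, was at 0.751 FPKM in young sham, 3.77 FPKM in young injured, 1.65 FPKM in adult sham and 6.24 FPKM in adult injured cartilage. No other member was higher in adult mice in both sham and injured cartilage. For Gbp3 these libraries gave 0.943, 4.15, 0.501 and 2.42 FPKM. Gbp9 was at 0.715, 2.64, 0.283 and 1.07 FPKM. Both genes were lower in each adult library than in the young library of the same surgery.

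Gbp7 was at 1.85 FPKM in young sham, 3.40 FPKM in young injured, 0.384 FPKM in adult sham and 1.60 FPKM in adult injured cartilage. Its adult injured level was below its young sham level, which was true of no other member. Gbp5, a protein linked to the NLRP3 inflammasome, was the lowest member in both injured libraries, at 0.817 FPKM (young) and 0.828 FPKM (adult), and was at 0.192 and 0.172 FPKM in the shams. At the depth given above these would be about 64 fragments in each injured library and 15 and 16 in the young and adult sham libraries. For Irgm1 the same calculation gave about 482 in young sham and 1058 in young injured, and 475 and 612 in the adult libraries.

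**Figure D2:**
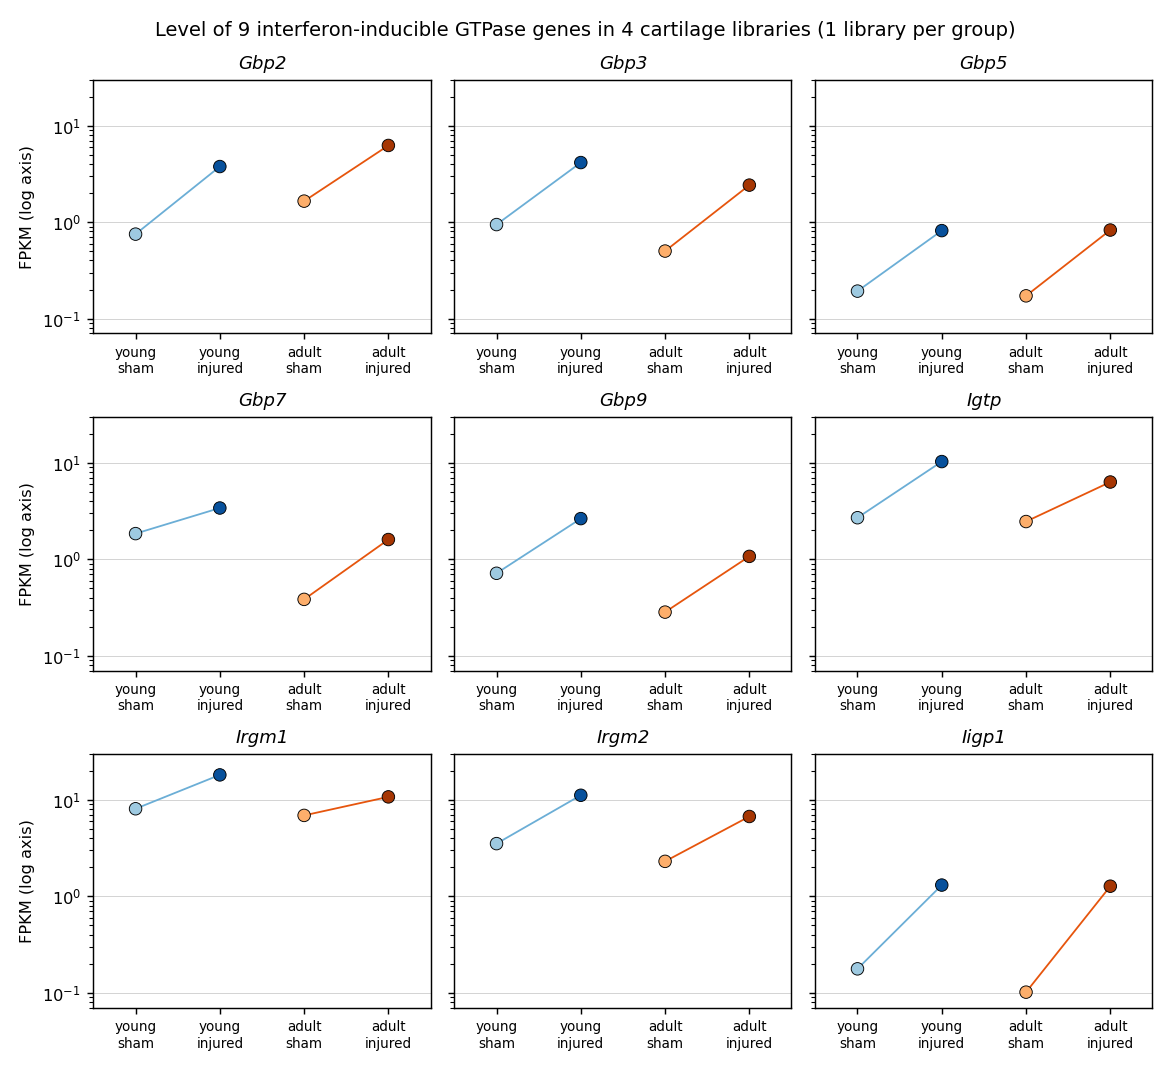
FPKM (log axis) of the 9 GTPase genes in the 4 libraries, 1 point per library, with lines joining sham and injured cartilage of the same age. Every line goes up, from 0.177 to 1.31 FPKM for Iigp1 and from 8.11 to 18.2 FPKM for Irgm1 in young mice.

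After injury in young mice, 6 of the 9 genes rose at least 2-fold and 0 fell, where 4.57% of the 18181 genes above 0 in any library were at least 2-fold higher and 1.27% lower. The genes were Igtp (log2 ratio 1.61), Gbp2 (1.45), Irgm2 (1.43), Gbp3 (1.41), Gbp9 (1.09) and Irgm1 (1.08). Iigp1 (0.97), Gbp7 (0.63) and Gbp5 (0.61) were higher by less than the threshold on this scale. The median of the 9 genes was 1.09, and that of all 18181 genes was 0.00. As plain FPKM ratios, without the added 1, the changes ranged from 1.84-fold for Gbp7 to 7.39-fold for Iigp1. On that scale 8 of the 9 genes were at least 2-fold higher, against 11.9% of the 16264 genes above 0 in both young libraries. The order of the genes thus depended on the added 1, since Iigp1 and Gbp5 (4.24-fold) were among the weakest genes in sham cartilage.

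In adult mice 5 of the 9 genes rose at least 2-fold after injury and 0 fell, where 6.9% of all genes were at least 2-fold higher and 1.46% lower. These were Gbp2 (log2 ratio 1.45), Irgm2 (1.23), Gbp3 (1.19), Igtp (1.08) and Iigp1 (1.05). Gbp7 had 0.91, Gbp9 0.69, Gbp5 0.64 and Irgm1 0.57. The median of the 9 genes was 1.05, against 0.14 for all genes. Plain FPKM ratios ran from 1.56-fold for Irgm1 to 12.6-fold for Iigp1, with 8 of 9 genes at 2-fold or more, against 19.4% of 15720 genes. The adult count depended on the scale between libraries. After median-of-ratios scaling only Gbp2 (1.22) and Gbp3 (1.06) stayed at 2-fold and the median was 0.83, whereas the young count stayed at 6 with a median of 1.05. Under that scaling 4.36% of all genes were at least 2-fold higher after young injury, and 4.41% were higher and 2.9% lower after adult injury. With plain ratios after the same scaling the adult count was 8, against 13.1% of 15720 genes.

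How the families compared depended on the scale. The summed FPKM of the 5 Gbp genes was 4.45 FPKM before and 14.8 FPKM after injury in young cartilage, and 2.99 and 12.2 FPKM in adult cartilage, which were ratios of 3.32 and 4.07. The 4 immunity-related GTPases summed to 14.5 and 41.0 FPKM in the young pair and to 11.8 and 25.1 FPKM in the adult pair, ratios of 2.83 and 2.13. Irgm1 weighs most in the second sums. The median log2 ratio of FPKM + 1 was 1.09 (young) and 0.91 (adult) for the Gbp genes, below 1.25 and 1.06 for the immunity-related GTPases, and 3 and 2 of the 5 Gbp genes passed 2-fold against 3 and 3 of the 4 others. With plain ratios the order of the medians was the reverse, at 4.24-fold and 4.18-fold for the Gbp genes and 3.50-fold and 2.74-fold for the others. By sum, the Gbp genes made up 23.5% (sham) and 26.5% (injured) of the sum of all 9 genes in young mice, and 20.2% (sham) and 32.6% (injured) in adult mice. Shares within a library do not depend on a single scaling factor for that library. In adult injured cartilage Gbp2 alone accounted for 16.7% of the sum.

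Of the 9 genes 5 had the larger injury log2 ratio in young mice, as had 33.7% of all 18181 genes. On the FPKM + 1 scale Igtp differed most, by 0.53, followed by Irgm1 (0.50), Gbp9 (0.39), Gbp3 (0.22) and Irgm2 (0.20). For Gbp2 the ratios of the ages were equal to the second decimal on this scale, but the plain ratios were 5.02-fold in young and 3.78-fold in adult mice. Gbp7 had the larger ratio in adult mice, by 0.28, as had Iigp1 (by 0.07) and Gbp5 (by 0.03). The count was 3 on the TPM scale and 6 with either quantile normalization or median-of-ratios scaling. It was 4 with plain ratios, where Gbp3 (4.40-fold and 4.83-fold) and Gbp9 (3.69-fold and 3.78-fold) had the larger ratio in adult mice, and 7 with plain ratios after median-of-ratios scaling. The share of all genes was calculated only for the deposited FPKM + 1, so the counts on other scales have no background beside them. The median difference was 0.20, but −0.03 on the TPM scale and −0.04 with plain ratios, so that its direction depended on the scale. On the FPKM + 1 scale no difference between the ages reached 1. As plain ratios Gbp7 had log2 values of 0.88 in young and 2.06 in adult mice. Without replicates no such difference could be tested.

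**Figure D3:**
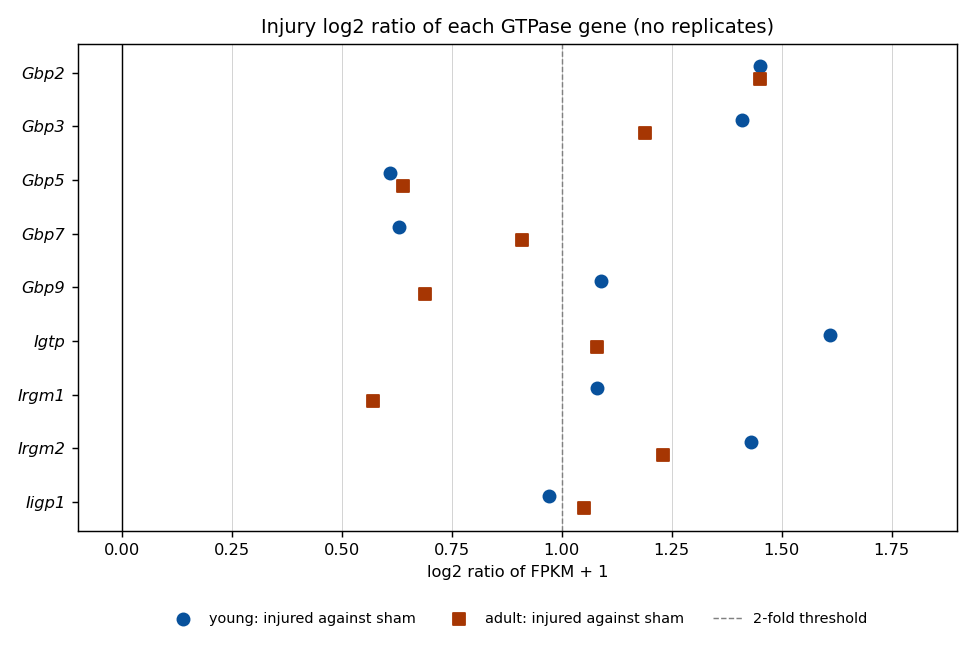
Log2 ratio of FPKM + 1 between injured and sham cartilage for each GTPase gene, with circles for young and squares for adult mice, and the 2-fold threshold as a dashed line. All 18 points lie above 0, 6 circles and 5 squares lie past the threshold, and the circle and square of Gbp2 fall together at 1.45.

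In uninjured cartilage 8 of the 9 genes were lower in adult than in young mice, with a median log2 ratio of −0.20 for the 9 genes and −0.15 for all genes. Among the genes that reached 1 FPKM everywhere the median was −0.30, and 5 of the 9 members lay above it. The 9 genes as a set were thus not lower than those genes. Gbp7 was the only gene past 2-fold, at −1.04 and 4.81-fold lower as a plain ratio, where 10.6% of all genes were at least 2-fold lower and 2.66% higher. As plain ratios 2 genes (Gbp7 and Gbp9) were at least 2-fold lower and 1 (Gbp2) higher, against 25.1% and 7.56% of 15694 genes. After median-of-ratios scaling the log2 ratio of Gbp7 was −0.86, and 5.86% of all genes were at least 2-fold higher and 5.13% lower. Gbp9 had −0.42, with a plain ratio of 2.53-fold lower, and Gbp3 had −0.37. Gbp2 was the exception, with a log2 ratio of 0.60 and 2.20-fold more FPKM in adult cartilage. The directions of Gbp5 (−0.03), Igtp (−0.10) and Irgm1 (−0.20) depended on the scaling, and median-of-ratios scaling gave 0.04, 0.22 and 0.19.

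When the injured libraries were set against each other, 7 of the 9 genes had the higher value in young mice. The change reached 2-fold in 0 genes on the FPKM + 1 scale, where 3.09% of all genes were at least 2-fold higher and 1.8% lower. The median log2 ratio of the 9 genes was 0.63, against 0.04 for all genes. Gbp9 (0.81), Gbp7 (0.76), Irgm1 (0.71), Irgm2 (0.66), Igtp (0.63) and Gbp3 (0.59) formed a narrow group, and these 6 genes were higher in young mice under all 3 other scalings as well. Gbp2 went the other way, with −0.60, and remained lower in young mice under all 3, between −0.69 and −0.82. Iigp1 (0.02) and Gbp5 (−0.01) lay near 0, and the sign of Iigp1 changed with each of the 3 scalings. As plain ratios Gbp9 and Gbp7 were 2.46-fold and 2.12-fold higher in young mice, where 10.5% of 16243 genes were at least 2-fold higher.

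**Figure D4:**
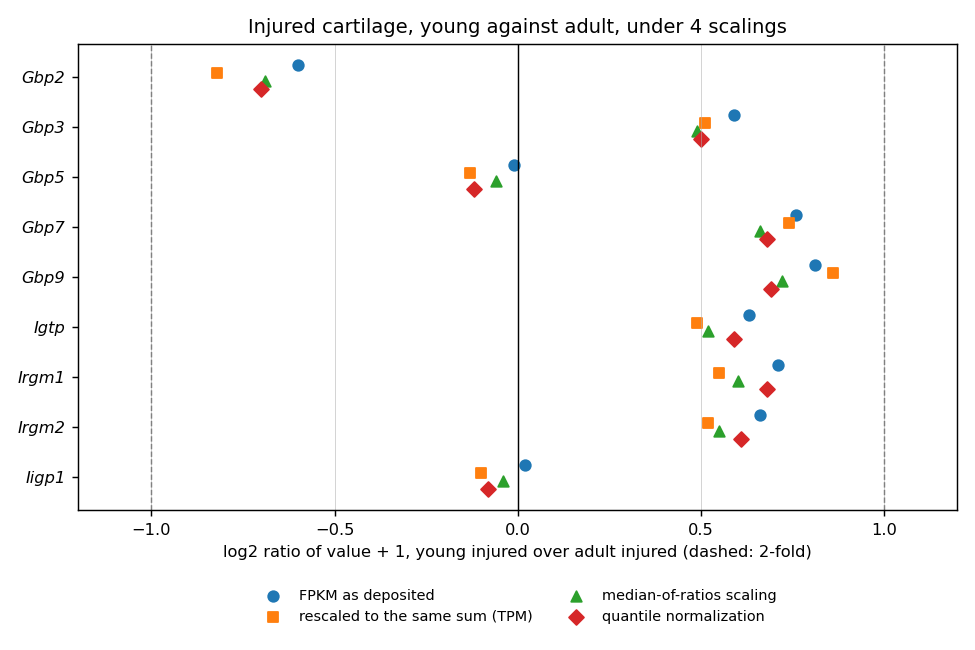
Log2 ratio of young injured over adult injured cartilage for each GTPase gene, with the deposited FPKM and under 3 rescalings (marker shapes). The 6 genes from Gbp3 to Irgm2 other than Gbp5 stay between 0.49 and 0.86, Gbp2 stays below 0, and Gbp5 and Iigp1 stay within 0.13 of 0.

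The table held 15 further Gbp and Irg family genes, most of them weak. Only 5 reached 1 FPKM in any library. Gm12250, which encodes the effector Irgb10, was at 0.122 FPKM in young sham and 1.85 FPKM in young injured, and at 0.0693 and 0.971 FPKM in adult sham and injured cartilage. Its log2 ratios were 1.35 and 0.88, and its plain ratios 15.2 and 14.0, the largest in either family after injury in both ages. With sham levels this low, its plain ratios and their rank are uncertain. Its transcript shared none of its 31-base words with another gene. Tgtp2 had log2 ratios of 1.00 and 1.10, but shared 90.5% of its words with other genes, Tgtp1 chief among them (89.2%), which leaves the value of either gene uncertain. The same held for Gbp6 (74.2%), Gbp10 (89.8%) and Gvin1 (99.7%). Gbp4 had log2 ratios of 0.58 and 0.43, Gbp8 of 0.38 and 0.38, and Gm4951 of 0.13 and 0.23. Gbp2b, Irgc1, Gm4841, F830016B08Rik and Gbp11 were listed at 0 in at least 1 library. Irgq, a distant relative, read 3.13 and 2.35 FPKM in the sham and injured young libraries and 2.40 and 2.68 FPKM in the adult ones, with log2 ratios of −0.30 and 0.11. In all, 1 of the 15 genes passed 2-fold after injury in young mice (Gm12250) and 1 in adult mice (Tgtp2), where 4.57% and 6.9% of all genes were at least 2-fold higher, and 0 in the comparisons between the ages. A gene below 1 FPKM in every library cannot reach 2-fold on this scale. Only the 5 genes that reached 1 FPKM could thus be counted, and the counts are not read against the background. As plain ratios, which 12 and 11 of the 15 genes allowed, 7 genes reached 2-fold after young injury and 8 after adult injury, against the 11.9% and 19.4% of all genes given above. Promoter entries were found for 5 of the 15 genes, of which 4 held an ISRE, 3 a GAS and 3 both in 1 window. Among the 9 GTPases 4 of 7 held both.

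The pathway that induces these genes was measured in the same libraries. Ifng, the ligand, was listed at 0 in 3 libraries and at 0.0322 FPKM in adult injured cartilage. The receptor chain Ifngr1 read 24.2 and 36.5 FPKM in the sham and injured young libraries and 23.9 and 36.6 FPKM in the adult ones, below 2-fold at both ages. The other chain, Ifngr2, was at 14.4 and 18.4 FPKM in the young pair (log2 ratio 0.34) and rose in the adult pair, with 7.30 and 18.7 FPKM (1.25). Irf9, a subunit of a complex that binds the ISRE, had 7.98 and 18.0 FPKM in the young pair (log2 ratio 1.08) and 6.15 and 12.7 FPKM in the adult pair (0.94). Of 14 genes of IFN-γ signalling, 5 passed 2-fold in young mice and 6 in adult mice, all upwards, with medians of 0.84 and 0.89. These counts, and those of the lists that follow, stand beside the 4.57% (young) and 6.9% (adult) of all genes that were at least 2-fold higher after injury.

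Other genes induced by IFN-γ, 23 above 0 of 24 listed, had median log2 ratios of 1.11 (young) and 0.99 (adult), and 12 and 11 of them passed 2-fold. The list included B2m and Cd74 of antigen presentation, with ratios of 1.14 and 0.77 for B2m and of 1.37 and 2.35 for Cd74. The 24 type I interferon effectors had medians of 1.82 and 0.90, with 19 and 11 genes past 2-fold. Isg20 and Irf7, the second of these a transcription factor of the type I response, had 0.32 and 0.30 and 2.38 and 1.46. Beside these stand the medians of 1.09 and 1.05 of the 9 GTPases. Differences between the lists were not tested.

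Genes of the processes that act with the GTPases were also counted. The Atg8 conjugation machinery, which loads the immunity-related and guanylate-binding GTPases onto vacuoles, was present throughout, and 0 of 10 genes changed 2-fold after injury at either age. Its Gabarapl2 read 68.3 and 82.1 FPKM in the sham and injured young libraries and 76.7 and 74.1 FPKM in the adult ones. Of 9 inflammasome genes, 4 rose in young and 5 in adult mice. Casp4, the sensor of bacterial lipopolysaccharide that acts downstream of the GTPases, rose at both ages, with 0.788 FPKM before and 5.89 FPKM after injury in young mice and 0.886 and 5.43 FPKM in adult mice. Gsdmd, the pore protein it cleaves, had log2 ratios of 1.65 and 1.18, and Aim2, a DNA sensor, 0.91 and 1.09.

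Markers of other cells moved in the same libraries. In pooled tissue, fewer cells of a type and less RNA per cell cannot be told apart. All 10 macrophage markers rose at least 2-fold at both ages, with medians of 3.17 and 2.11, and their summed level was 185.6 FPKM in sham and 1823 FPKM in injured young cartilage, and 303.8 and 1579 FPKM in adult cartilage. These are ratios of 9.82 and 5.20, beside 2.94 and 2.52 for the sum of the 9 GTPases. Of 7 endothelial markers, 6 rose at both ages, with sums of 16.3 and 79.7 FPKM in the young pair and of 18.0 and 65.8 FPKM in the adult pair. Markers of T and NK cells, the main producers of IFN-γ, summed over 10 genes to 1.53 and 3.59 FPKM in the sham and injured young libraries and to 1.49 and 7.56 FPKM in the adult ones. Cd3e was at 0 in adult sham, Cd3g in young sham and Gzmb in both sham libraries. All 10 genes were higher in the injured than in the sham library at both ages. Past 2-fold was 1 gene, Nkg7 in adult mice, with 0.718 FPKM in sham and 3.80 FPKM in injured cartilage. All 10 chondrocyte markers were at 1 FPKM or more in every library, and their sum was 17513 and 15443 FPKM in the young pair and 58137 and 23586 FPKM in the adult pair. Most of the adult sum lay in the 2 genes that fell at least 2-fold. These were Cytl1, with 26541 FPKM in sham and 5550 FPKM in injured cartilage, and Chad, with 20538 and 8281 FPKM. The median log2 ratio of the 10 genes was −0.26 in young and 0.13 in adult mice. Col2a1 read 9349 and 7903 FPKM in the young pair and 3173 and 3750 FPKM in the adult pair. In adult mice Acan (1.38), Col9a1 (1.95) and Col11a1 (1.02) rose at least 2-fold after injury, while Comp (−0.64) and Matn3 (−0.41) were lower by less than 2-fold. In young mice 0 of the 10 changed 2-fold. B cell markers summed to 58.8 and 84.8 FPKM in the young libraries and to 12.1 and 20.7 FPKM in the adult libraries. Neutrophil markers summed to 1228 and 2502 FPKM in the sham and injured young libraries and to 1622 and 1958 FPKM in the adult ones. Of the 6 skeletal muscle markers 5 fell after injury in adult mice, their sum going from 1405 to 383.9 FPKM, while it was 562.8 and 549.8 FPKM in young mice. Of 6 erythroid markers 1 rose in young mice and 3 fell in adult mice, and all 6 were at least 2-fold higher in young than adult injured tissue. Of 4 osteoblast markers 1 rose in young mice. Their sum was 498.4 and 751.2 FPKM in the sham and injured young libraries and 4643 and 4762 FPKM in the adult ones. At least 2-fold higher in adult than young mice were 3 of the 4 in sham and 3 in injured cartilage. Of 4 fibroblast markers 1 rose in young and 1 fell in adult mice. The part of these cells in the GTPase values was not tested.

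**Figure D5:**
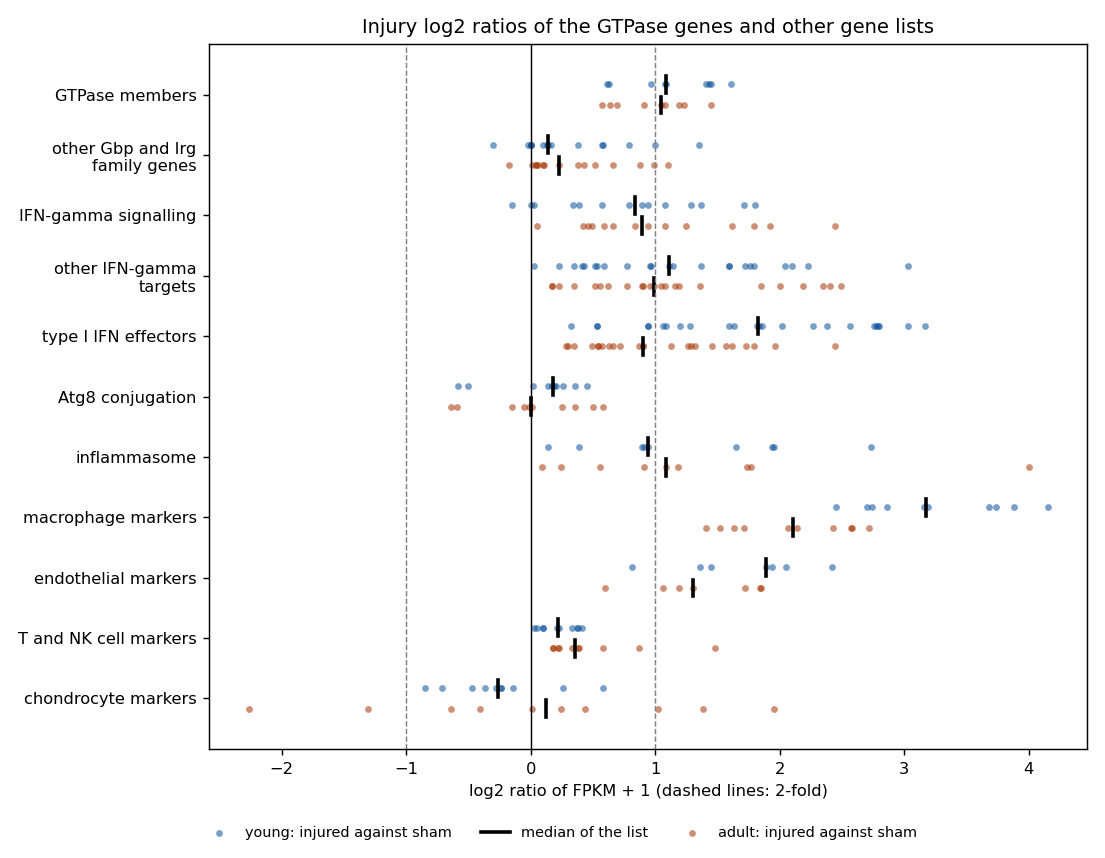
Log2 ratio of FPKM + 1 between injured and sham cartilage for each gene of the GTPase members and of 10 other lists, in blue for young and brown for adult mice, with black bars at the list medians. The GTPase members lie between 0.57 and 1.61, and their medians (1.09 and 1.05) lie between those of the Atg8 conjugation genes (0.18 and 0.00) and the macrophage markers (3.17 and 2.11), while single genes of the lists overlap.

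Among the 8052 other genes whose mean reached 5 FPKM, the profile over the 4 libraries most like that of the GTPases was that of Irf9. Likeness was the Euclidean distance between log2(FPKM + 1) values centred on their mean over the 4 libraries, and the reference was the average of the 7 members whose mean reached 1 FPKM. Irf9 lay at a distance of 0.13, where the median gene lay at 1.19. Among the nearest 10 were also Cinp, Abracl, Cd37, Rab8b, Plbd1, Mndal, Prcp and Napsa, at 0.22 to 0.27. Mndal is an interferon-inducible gene of the family that also holds Aim2. Among the members themselves the distance was least for Gbp3 (0.19) and largest for Gbp2 (1.05). With only 4 libraries such a ranking is a description. The list depended on the scale. All of the nearest 10 stayed so after quantile normalization, 8 after median-of-ratios scaling and 5 on the TPM scale, where Irf9 ranked 14. Of the 10, 2 stayed with a pseudocount of 0.1 FPKM and 1 with 5 FPKM. Across the alternatives Irf9 ranked between 1 and 38.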

How the data were processed

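RNA-seq was made from 4 pooled cartilage libraries with a strand-specific kit after poly-A selection and sequenced as 2 × 100 bp reads. The authors deposited FPKM per gene, on mm10. The submitters' processing notes name HISAT2 2.1.0, StringTie 1.3.4d, STAR and SAMtools without giving their roles. The 4 FPKM columns were matched to their samples by name and read for 24532 genes. From them log2 ratios of FPKM + 1 were calculated for 4 comparisons over the 18181 genes above 0 in at least 1 library, with a threshold of 2-fold. With 1 library per group no p-value or interval was calculated, and 8 of the 9 GTPase genes, all but Gbp5, reached 1 FPKM in a library. The members and lists were chosen with earlier results of these data known. Besides the members, the other Gbp and Irg genes were named, from each list at most 4 genes of the highest mean FPKM or of a role in the GTPase pathway, and genes among the 10 of the most similar profile, of which 1 is not reported here. Cd3e, Cd3g and Gzmb, listed at 0, and Acan, Col9a1, Col11a1 and Nkg7, which rose, were named after their values were seen. The same holds for Comp and Matn3, which were lower in adult injured cartilage. Alternatives were pseudocounts of 0.1 and 5 FPKM, TPM, median-of-ratios and quantile scaling, a filter at 1 FPKM and thresholds of 1.5-fold and 3-fold, and, added after seeing the data, plain ratios. Fragment totals were read from FPKM steps of 17546 genes with 1 listed transcript. Sequence words came from GENCODE M21 transcripts, promoters and coordinates from RefSeq (GRCm38.p6). The scripts were tested on simulated data. Python 3.11.15, numpy 2.4.6, pandas 2.3.3 and matplotlib 3.10.9 were used.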

Additional observations from a re-analysis of the deposited data

How the results depend on the processing

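All 9 GTPase genes were higher in the injured than in the sham library at both ages under every pseudocount and scaling tried, and the filter at 1 FPKM, which removed Gbp5, left the same 8 higher. Counts past the threshold moved more, and the cause was not tested. With a pseudocount of 5 FPKM the injury counts were 0 in young and 0 in adult mice, the medians 0.61 and 0.40, and the count lower in adult sham cartilage 0. With 0.1 FPKM or with plain ratios, 8 genes rose in adult mice, 1 was higher and 2 were lower in adult than in young sham, and 2 were higher in young than in adult injured cartilage. With 0.1 FPKM, 5.72% of all genes were higher and 21.1% lower in adult sham, and 8.27% were higher in young injured cartilage. With plain ratios these shares were 7.56%, 25.1% and 10.5%. On the TPM scale 8 genes rose in adult mice and 3 had the larger injury ratio in young mice. Median-of-ratios scaling gave 2 genes and a median of 0.83 in adult mice, quantile normalization 1 gene and 0.70, and both gave 0 genes at least 2-fold lower in adult sham cartilage and 4 genes above 0 there in place of 1. Plain ratios after median-of-ratios scaling gave 8 genes in adult mice, 1 higher in adult sham and 1 higher in young injured cartilage. The shares of all genes were 13.1%, 14.1% and 9.2% in the same order. A 1.5-fold threshold gave 8 genes in adult mice (17.9% of all genes), 1 higher in adult sham (6.54%), and, among injured libraries, 6 genes higher (9.78%) and 1 lower (5.51%) in young mice. A 3-fold threshold gave 1 gene in young, 0 in adult mice and 0 lower in adult sham cartilage. The young injury count, 6 as reported, was 8 with 0.1 FPKM or with plain ratios, 7 on the TPM scale, 5 after quantile normalization and 9 at 1.5-fold. The share of all genes called higher after young and adult injury was 9.99% and 15.9% with 0.1 FPKM, 1.89% and 2.39% with 5 FPKM, 5.35% and 11% on the TPM scale, 4.07% and 3.99% after quantile normalization, 9.5% and 17.9% at 1.5-fold, and 2.02% and 2.43% at 3-fold. With the filter at 1 FPKM it was 6.28% and 9.5% of 13209 genes, against 4.57% and 6.9% without it. Genes below 1 FPKM everywhere cannot reach 2-fold on the FPKM + 1 scale. No paired analysis was possible because each group is 1 library and the labels give no replicate numbers. Of the 6 genes with a fragment estimate Gbp5 had the fewest, and no replicate check exists for any value.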

Other observations

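The promoter letters were also counted in the other gene lists, as a description, beside 3.99% of all genes with a RefSeq entry for the ISRE and 9.55% for the GAS. Of the type I interferon effectors with an entry, 8 of 17 held the ISRE letters and 3 of 17 the GAS letters, and 1 gene held both. Of 15 other IFN-γ targets, 3 held an ISRE match and 1 (6.67%) a GAS match, the second a share below that of all genes. Of 12 genes of IFN-γ signalling 2 held an ISRE and 4 a GAS match. The ISRE letters were in 0 of 7 Atg8 conjugation genes, 0 of 8 inflammasome genes, 0 of 6 macrophage, 0 of 8 T and NK cell and 0 of 7 chondrocyte marker genes. The GAS letters were in 2 of those 7 Atg8 conjugation genes, 0 of the 8 inflammasome genes, 1 of the 6 macrophage, 3 of the 8 T and NK cell and 0 of the 7 chondrocyte marker genes. Lists had entries for only part of their genes, and a match outside the 300 bases would not be seen.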
